A study of Mus musculus with 2 samples.

Results

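The collagen genes are the 42 autosomal protein-coding genes of the mouse annotation (GENCODE M21, genome build mm10) whose symbol is Col, a number, a and a number, out of 20807 autosomal protein-coding genes. They were chosen by name alone. Of the collagen genes named this way, 2 more (Col4a5 and Col4a6) lie on X and were not counted. Each gene was read at its promoter, meaning 1 kb on either side of any annotated transcript start, and over its window, meaning the whole gene with 10 kb of flank at each end.

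The data are DNase-seq maps of thymus from 2 female mice aged 36 days, with 1 library per animal, called mouse 1 and mouse 2 after their replicate numbers. DNase-seq finds the stretches of DNA that the nuclease DNase I can reach, which are those not wrapped tightly in nucleosomes. Both animals were B6CASTF1/J, a first-generation hybrid of a C57BL/6 laboratory mouse and a CAST mouse, and the labels name no treatment. There was 1 group, so no groups were compared and no test was run: values are given in each mouse, and the spread is the one between these 2 animals.

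Collagens are secreted or membrane-bound proteins built from chains that wind into a triple helix, and they form the fibrils, networks and basement membranes of connective tissue. In the thymus they are made mainly by fibroblasts, pericytes, endothelium and epithelium, the stroma that carries the developing T cells. The stroma was not separated here, and most cells of a thymus are immature T cells (thymocytes). In such whole tissue, fewer cells of a type and less accessible DNA per cell cannot be told apart.

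Markers of the cell types were read first. All 12 thymocyte markers had a promoter peak in both mice, against 57.3% of all autosomal protein-coding genes, with summed promoter signals of 103 in mouse 1 and 135 in mouse 2. Of 13 mesenchymal markers, 3 did (Pdgfra, Pdgfrb and Fn1), with summed signals over the whole list of 3.57 and 9.12, and Dcn, Lum, Prrx1, Twist1 and Twist2 had no promoter peak in either mouse. Of 8 endothelial markers, 3 did (Pecam1, Kdr and Egfl7), with summed signals of 7.01 and 7.62. Of 9 thymic epithelial markers, 4 did (Epcam, Prss16, Cldn4 and Ly75), with summed signals of 14.2 and 32.5, and Foxn1, Krt5, Krt8, Krt14 and Psmb11 had no promoter peak in either mouse. These libraries therefore describe whole thymus and not isolated stroma. The part that cell composition plays in the collagen values was not tested.

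Each library came with 2 peak lists, of 59484 and 93107 peaks in mouse 1 and of 72913 and 117361 in mouse 2. The shorter list is the stricter: every peak on it touched a run of significant cutting with a false discovery rate (FDR) of at most 0.0009573 in mouse 1 and 0.0009925 in mouse 2, against 0.04972 and 0.04995 for the longer list. Peaks of the shorter list are meant below unless the longer is named. Signal is the value the authors deposited with each peak. Its scale, and any normalisation for depth, is not named in the sources used here.

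Open sites at the start sites of 4 collagen genes are printed first, since the results below turn on them. Each is the strongest start-site peak of its gene by the mean of both mice. The strongest start-site peak of Col15a1 (2.81 in mouse 1 and 2.92 in mouse 2) is not printed because it lies on an untranslated exon. Each printed sequence is the stretch shared by the peaks of both mice, read 5′ to 3′ on the strand of its gene from the mm10 reference. Capitals mark bases that lay in a footprint, a short protected dip in cutting, in both mice. The first lies at the start of the main coding transcript of Col27a1, a fibrillar collagen (chr4:63215241-63215420, plus strand). The second lies just upstream of the first exon of Col5a1, the chain that sets fibril diameter (chr2:27886181-27886380, plus strand). The third lies at an internal start of Col25a1, a membrane-spanning collagen (chr3:130180661-130180860, plus strand). The fourth lies in an intron near the start of Col1a1, the main chain of type I collagen (chr11:94937081-94937280, plus strand).
Col27a1 promoter: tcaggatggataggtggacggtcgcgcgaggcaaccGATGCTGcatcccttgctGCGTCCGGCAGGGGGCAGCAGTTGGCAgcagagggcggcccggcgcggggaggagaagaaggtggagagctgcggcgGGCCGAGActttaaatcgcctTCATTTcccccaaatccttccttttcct
Col5a1 promoter: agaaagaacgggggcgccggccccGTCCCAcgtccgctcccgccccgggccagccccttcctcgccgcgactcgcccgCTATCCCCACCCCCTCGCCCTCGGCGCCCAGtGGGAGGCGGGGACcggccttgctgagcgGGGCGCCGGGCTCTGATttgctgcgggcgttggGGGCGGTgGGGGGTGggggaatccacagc
Col25a1 internal start: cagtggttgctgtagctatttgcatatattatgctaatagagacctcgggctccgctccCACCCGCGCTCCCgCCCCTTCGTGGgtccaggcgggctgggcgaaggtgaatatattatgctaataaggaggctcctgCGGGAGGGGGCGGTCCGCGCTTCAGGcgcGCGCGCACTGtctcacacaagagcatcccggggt
Col1a1 first kilobases: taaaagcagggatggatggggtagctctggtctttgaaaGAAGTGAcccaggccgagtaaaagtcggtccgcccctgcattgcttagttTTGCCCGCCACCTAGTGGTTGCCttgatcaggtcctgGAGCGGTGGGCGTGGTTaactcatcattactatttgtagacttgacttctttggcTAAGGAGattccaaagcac

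Footprints listed in both mice covered 48 of 180 bases in Col27a1, 81 of 200 in Col5a1, 60 of 200 in Col25a1 and 54 of 200 in Col1a1. The Col5a1 stretch was 77.0% GC with 24 CpG sites, and the Col1a1 stretch was 50.5% GC with 6. A GC box (GGGCGG, the letters bound by SP1, searched on both strands) occurred in each of the 4. In windows of 200 bases at all peaks, these letters were found in 25.2% in mouse 1 and 26.5% in mouse 2. Of the 300-base promoter windows in the RefSeq table (mm10), 48.3% of 19174 held them, and 21 of 36 windows of 33 collagen genes did. A CTCF core (CCNNNAGNNGGC, both strands) was found in the Col27a1 and Col1a1 stretches, against 15.6% of the 200-base peak windows in mouse 1 and 19.6% in mouse 2.

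The example of a gene without any listed interval is Col3a1, which makes the type III collagen of reticular fibres in lymphoid organs. In whole thymus this does not show whether its promoter is closed in the stromal cells. The 250 bases before its start (chr1:45311288-45311537, plus strand) held no peak, no run of significant cutting and no footprint in either mouse. They were 35.2% GC with 0 CpG sites and held the letters of a TATA box (TATAAA, searched on both strands). These letters were held by 12.15% of all 300-base RefSeq promoter windows and by 5 of the 36 collagen windows. A match anywhere in the stretch was counted, whatever its distance to the start, so it does not show a working TATA box.
Col3a1 upstream: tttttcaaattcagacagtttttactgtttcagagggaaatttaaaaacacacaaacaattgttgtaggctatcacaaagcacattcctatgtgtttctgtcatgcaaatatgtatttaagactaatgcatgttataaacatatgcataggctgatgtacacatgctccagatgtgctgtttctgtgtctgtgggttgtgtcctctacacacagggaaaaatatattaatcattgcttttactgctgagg

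Collagen promoters seldom held a peak in these whole-thymus libraries. A promoter peak was found in both mice at 9 of 42 collagen genes (21.4%), against 57.3% of all autosomal protein-coding genes. Mouse 1 had one at 9 genes (57.7% of all genes) and mouse 2 at 18 (63.9% of all genes). The 9 of mouse 1 were all among the 18 of mouse 2. They were Col1a1, Col5a1, Col6a2, Col6a4, Col13a1, Col15a1, Col25a1, Col26a1 and Col27a1. A further 9 genes had a promoter peak in mouse 2 only, 21.4% of the collagen genes against 6.62% of all genes. The remaining 24 had none in either mouse, or 57.1% against 35.7%.

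The longer list gave 13 collagen genes in mouse 1 (62.3% of all genes) and 27 in mouse 2 (69.6% of all genes), with 13 in both (61.6% of all genes). In mouse 1 it added Col4a3, Col4a4, Col14a1 and Col23a1, with signals between 0.191 and 0.338. In mouse 2 it added Col1a2, Col2a1, Col5a2, Col5a3, Col6a5, Col9a3, Col12a1, Col16a1 and Col19a1, with signals between 0.0806 and 0.489. With the longer list the collagen share was thus 64.3% in mouse 2, nearer to that of all genes, and 31.0% in mouse 1.

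A run of significant cutting reached 14 collagen promoters in mouse 1 (63.5% of all genes) and 28 in mouse 2 (70.4% of all genes). The runs alone added Col22a1 in mouse 1, at an FDR of 0.0338, and Col24a1 in mouse 2, at 0.0407. At 14 genes there was no such run in either mouse, 33.3% against 28.8% of all genes. They were Col3a1, Col6a1, Col6a3, Col6a6, Col7a1, Col8a1, Col8a2, Col9a1, Col9a2, Col10a1, Col17a1, Col18a1, Col20a1 and Col28a1. Footprints were listed at 11 collagen promoters in mouse 1 (26.2%, against 60.5% of all genes) and 26 in mouse 2 (61.9%, against 68%). In both mice they were listed at 11, against 60.1% of all genes. The number of footprints was 81 in mouse 1 and 155 in mouse 2 (mean 118 ± 52.3, SD, n = 2).

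**Figure D1:**
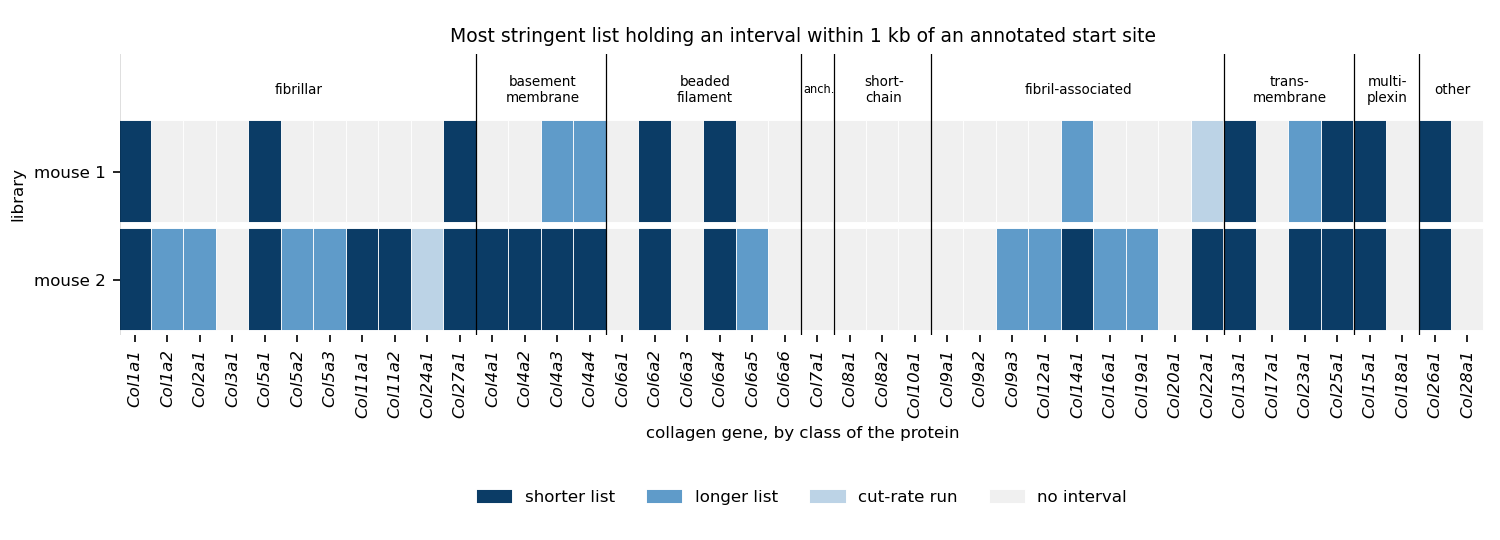
Strictest list that held an interval within 1 kb of a start site, for each of the 42 collagen genes (columns, by protein class) in each mouse (rows). Dark tiles are shorter-list peaks (9 genes in mouse 1, 18 in mouse 2), and 28 genes in mouse 1 and 14 in mouse 2 had no interval.

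Calls were spread over the protein classes. Among the 11 fibrillar collagens, the rope-like fibril formers, 3 had a promoter peak in both mice (Col1a1, Col5a1 and Col27a1) and Col11a1 and Col11a2 had one in mouse 2 only. The partner chain Col1a2, which winds together with Col1a1 chains in type I collagen, had only a longer-list peak in mouse 2. Among the 6 beaded-filament genes (type VI), Col6a2 and Col6a4 were called in both mice, and the chains Col6a1 and Col6a3 that assemble with Col6a2 had no listed run of significant cutting at their starts. Of the 9 fibril-associated collagens none was called in both mice, while Col14a1 and Col22a1 were called in mouse 2. Of the 4 transmembrane collagens, Col13a1 and Col25a1 were called in both mice, Col23a1 in mouse 2 only, and Col17a1, a component of hemidesmosomes, in neither. The multiplexins split too: Col15a1 was called in both mice and Col18a1, the source of endostatin, in neither. None of the 3 short-chain genes (Col8a1, Col8a2 and Col10a1), nor Col7a1 of the anchoring fibrils, had a promoter interval of any kind.

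The 4 autosomal type IV genes, which make the network of basement membranes, form 2 pairs, each with a shared promoter. The starts of Col4a1 and Col4a2 lie 21 bp apart and face away from each other, and those of Col4a3 and Col4a4 lie 72 bp apart. Each pair had 1 shorter-list peak, in mouse 2 only, so the 4 calls rest on 2 peaks. The signal was 0.363 at the Col4a1 and Col4a2 pair and 0.207 at the Col4a3 and Col4a4 pair. These were among the weakest collagen promoter peaks in mouse 2. The longer-list peak of mouse 1 at the second pair (signal 0.191) covered other bases and did not overlap the mouse 2 peak.

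Open collagen promoters were also weak. The highest promoter signal was 1.58 in mouse 1 and 6.69 in mouse 2 at Col27a1, 1.51 and 5.99 at Col5a1, and 1.96 and 3.53 at Col25a1. Col1a1 stood at 1.22 and 3.11, and Col6a2, a chain of the type VI filaments, at 0.619 and 2.04. Col13a1 had 0.383 and 1.56, Col26a1 0.485 and 0.977, and Col6a4 0.3 and 0.524. Mouse 2 was the higher at each of these 8 genes. Col15a1, a collagen of the basement membrane zone, had nearly the same signal in both, with 2.81 in mouse 1 and 2.92 in mouse 2.

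The median over the collagen genes with a promoter peak was 1.22 in mouse 1 (9 genes) and 0.791 in mouse 2 (18 genes). Over the same 9 genes called in both mice it was 1.22 in mouse 1 and 2.92 in mouse 2. Over all genes with such a peak it was 5.04 and 10.7. None of the collagen genes reached the all-gene median of its mouse. The strongest of them lay above 30.0% of the called genes in mouse 1 (Col15a1) and above 36.9% in mouse 2 (Col27a1). The genes called in mouse 2 only ranged from 0.207 at Col4a3 and Col4a4 to 0.806 at Col23a1. Mouse 2 had the longer peak lists and the finer signal step in general, and its part in these calls was not tested.

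**Figure D2:**
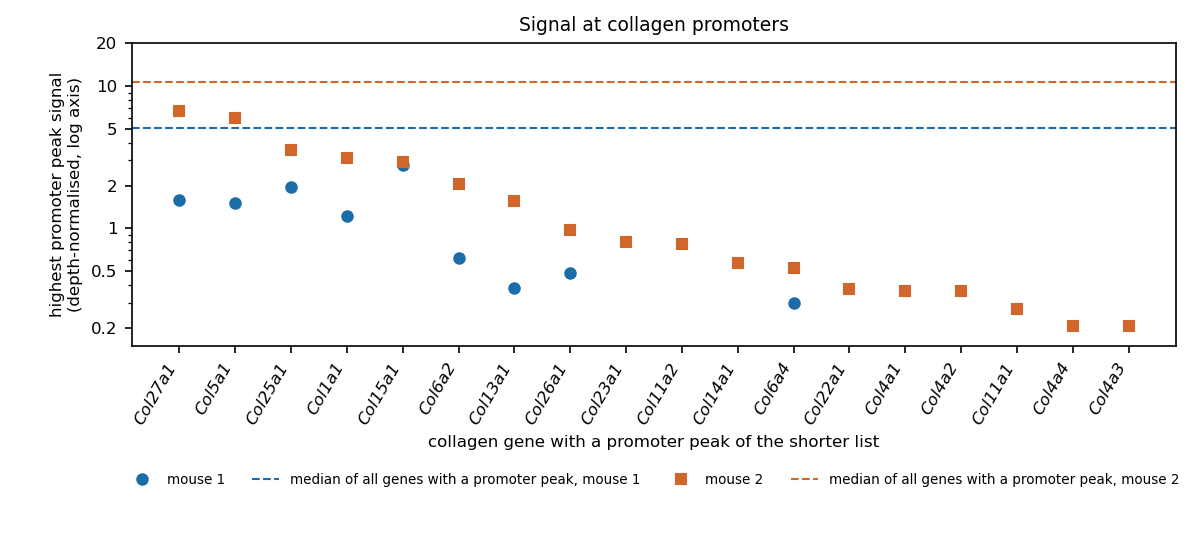
Highest promoter peak signal (log axis) of each collagen gene with a shorter-list promoter peak, in mouse 1 (circles) and mouse 2 (squares). The axis label calls the signal depth-normalised, but no such normalisation is named in the sources used here. Dashed lines are the medians of all genes with a promoter peak, 5.04 and 10.7, and every collagen point lies under the line of its mouse.

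Several of the calls did not sit where transcription of the full-length gene is annotated to start. With the 5′ end of the gene as the only start, 4 collagen genes had a peak in both mice (Col1a1, Col5a1, Col6a2 and Col27a1), against 52.9% of all genes. The Col15a1 peaks shared by both mice lay at starts of coding transcripts 79.9 and 80.1 kb inside the gene. Mouse 2 had 3 more at a coding start 95.6 kb inside (signals 1.28, 1.43 and 0.61). Mouse 1 had longer-list peaks overlapping those of 1.28 and 1.43, with the higher signals of 1.985 and 1.474. The Col25a1 peaks lay at a retained-intron transcript that starts 49.4 kb inside, with a coding start within 1 kb. The Col13a1 peak lay at a processed transcript 101 kb inside, the Col26a1 peak at one with a retained intron 128 kb inside, and the Col6a4 peak at a processed transcript 24.4 kb inside. At Col1a1 the shared peak lay in an intron about 1 kb from the 5′ end, and the 5′ end itself had no shorter-list peak. The collagen genes are long, with a median of 111 kb against 17.6 kb over all genes, and have a median of 4 start sites against 3.

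The base composition of the 5′ end was set beside the call. It does not describe the called DNA at Col13a1, Col15a1, Col25a1, Col26a1 and Col6a4, whose shared peaks lay at the internal starts above. The ratio of observed to expected CpG sites around the 5′ end had a median of 0.602 in the 9 genes called in both mice and 0.337 in the 24 called in neither. The all-gene medians of the same classes were 0.728 and 0.185. Of 12 collagen genes with a ratio of at least 0.6, 5 were called in both mice (Col5a1, Col13a1, Col15a1, Col26a1 and Col27a1), against 86.5% of all such genes. Of the 30 with a lower ratio, 4 were called (Col1a1, Col6a2, Col6a4 and Col25a1), against 31.3%. The collagen share was below that of all genes in both classes. Col12a1 (0.756), Col4a2 (0.784) and Col4a1 (0.774) had CpG-rich starts and no promoter peak in mouse 1.

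Over the whole gene windows, peaks were sparse. The median collagen gene had 0.15 peaks per 10 kb in mouse 1 and 0.201 in mouse 2, against 0.433 and 0.5 over all genes. The median of the per-gene mean of both mice was 0.177, with an SD of 0.0358 between the medians of the 2 mice, and 10 of 42 genes lay above the all-gene median of 0.486. This density is per length, and collagen windows are long: by number, the median window held 1 peak in mouse 1 and 2 in mouse 2, against 2 and 3 over all genes. With the longer list it held 2 and 4 peaks, against 3 and 4. Runs of significant cutting numbered 6 and 7, against 6 in each mouse over all genes. Footprints numbered 4 and 7.5, against 12 and 15. Leaving out the flanks gave a density of 0.1.

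The 5 densest windows were those of Col11a2 (1.06 peaks per 10 kb in mouse 1 and 3.81 in mouse 2), Col27a1 (0.709 and 2.84), Col15a1 (0.88 and 1.76), Col1a1 (0.272 and 1.63) and Col8a2 (0.421 and 1.05). In each of them mouse 2 was the denser. No peak lay in the windows of Col3a1, Col5a2, Col9a1, Col10a1 and Col12a1 in either mouse, 5 of 42 genes against 21.5% of all genes. Col3a1 and Col5a2 are neighbours 24614 bp apart, and both make chains of mixed fibrils with type I collagen. With the longer list, Col3a1 and Col9a1, a cartilage collagen, still had none in either mouse. Their windows also held no run of significant cutting and no footprint. Of the 42 genes, 25 had more window peaks in mouse 2, 2 had more in mouse 1 (Col18a1 and Col28a1), and 15 had equal numbers. Mouse 2 had the longer peak lists and collagen windows are long, and the same split over all genes was not counted.

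**Figure D3:**
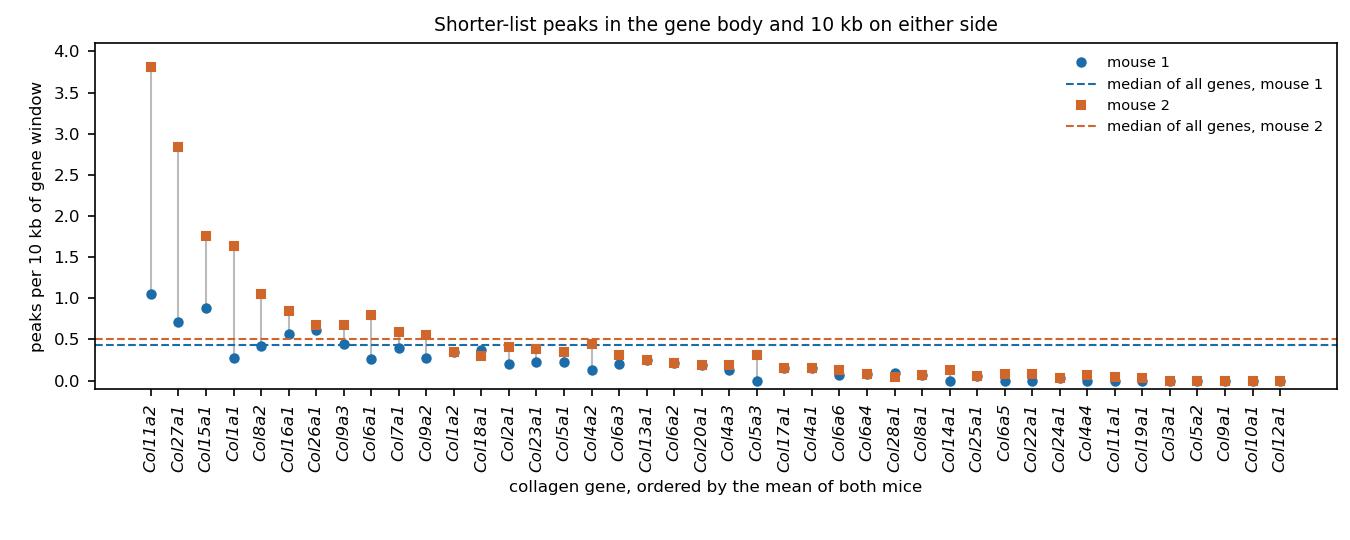
Peaks per 10 kb of the gene with its 10 kb flanks, for each collagen gene in mouse 1 (circles) and mouse 2 (squares), joined by a grey line. Dashed lines are the all-gene medians, 0.433 and 0.5. Col11a2, Col27a1, Col15a1 and Col1a1 show the widest gaps between the mice, and the last 5 genes are at 0.

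The collagen windows held 92 different peaks in mouse 1 and 185 in mouse 2. Introns held 47 and 78 of them, collagen promoters 16 and 37, and promoters of other genes 17 and 25. Coding exons held 4 and 17. The same split over all peaks was not counted, so these numbers do not show what is particular to collagen windows. A footprint lay in 92.4% of the mouse 1 peaks and 82.7% of the mouse 2 peaks, against 87.0% and 89.7% of all peaks. The median signal was 0.97 and 0.882, against 1.22 and 1.45 over all peaks.

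The 2 mice shared these peaks unequally. Of the mouse 1 peaks 87.0% overlapped a peak of mouse 2, against 80.8% of all peaks. Of the mouse 2 peaks 44.3% overlapped one of mouse 1, against 66.1% of all peaks. The 103 peaks of mouse 2 without a partner had a median signal of 0.595, and the 82 with one had 2.35. Col27a1 and Col11a2 held many of the unpartnered peaks, as described next.

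Col27a1 had 10 window peaks in mouse 1 and 40 in mouse 2. Outside the last 26.0 kb of the gene the numbers were 9 and 9. Within that 3′ stretch (chr4:63309004-63334991) mouse 1 had 1 peak and mouse 2 had 31, of which 30 had no partner. Those 30 were weak, with signals from 0.0957 to 0.448 and a median of 0.169. A footprint lay in 17 of them, 14 lay on an exon, and 1 touched a run of significant cutting in mouse 1. The share of all peaks that lie on exons was not counted. With the longer list the stretch held 3 peaks in mouse 1 and 36 in mouse 2. A surplus of at least 30 window peaks in mouse 2 was seen at 25 of the autosomal genes (0.12%), where the median difference was 0.

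**Figure D4:**
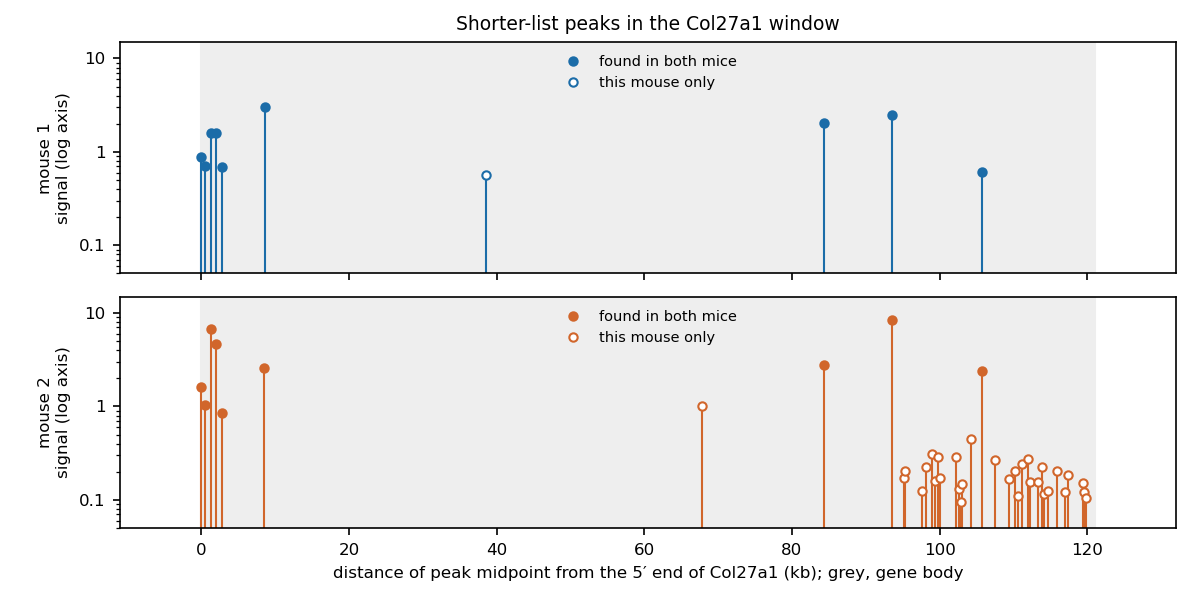
Peaks of the Col27a1 window by distance from the 5′ end of the gene (kb) and signal (log axis), in mouse 1 (upper) and mouse 2 (lower). Filled points were found in both mice and open points in 1 mouse. The peaks near the start and at 84 to 94 kb pair up, and the row of 30 open points under 0.45 past 95 kb is seen in mouse 2.

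Col11a2, a cartilage fibril chain in the gene-dense major histocompatibility region, had a row of unpartnered peaks upstream. Its window held 5 peaks in mouse 1, all at promoters of other genes (Slc39a7, Rxrb and H2-Pb). In mouse 2 it held 18, of which 12 lay at other genes, 4 at the collagen promoter and 2 elsewhere. At the collagen promoter, 2 of the 4 listed peaks overlapped from the same start (34038981), so part of this DNA was counted in both. Of those 18, 13 had no partner in mouse 1 and 11 of these touched no run of significant cutting there. The Col11a2 promoter call in mouse 2 thus rests on peaks of signal 0.479 to 0.776 at the end of a stretch that begins in Rxrb.

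Between the mice, signal at shared sites was usually higher in mouse 2. Over 80 shared peaks of the collagen windows the median log2 ratio of mouse 2 to mouse 1 was 1.02, and 72 were higher in mouse 2. Over all 46907 shared peaks of the 2 libraries it was 0.75. The ratio went with GC content in the whole series: the all-peak median rose from 0.03 in the lowest of 5 GC groups to 1.43 in the highest. In the collagen windows the medians of the same groups were 1.05 (13 peaks), 0.48 (16), 1.00 (20), 0.83 (20) and 1.57 (11). In the lowest group, up to and including 50% GC, 9 of 13 collagen peaks were higher in mouse 2. At the 15 shared peaks at collagen starts 14 were higher in mouse 2, and the exception was a Col15a1 peak (1.08 in mouse 1 and 0.851 in mouse 2, log2 ratio -0.34). Col15a1 also gave the peak with the lowest ratio, an intronic site with 3.41 in mouse 1 and 1.09 in mouse 2 (-1.65).

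**Figure D5:**
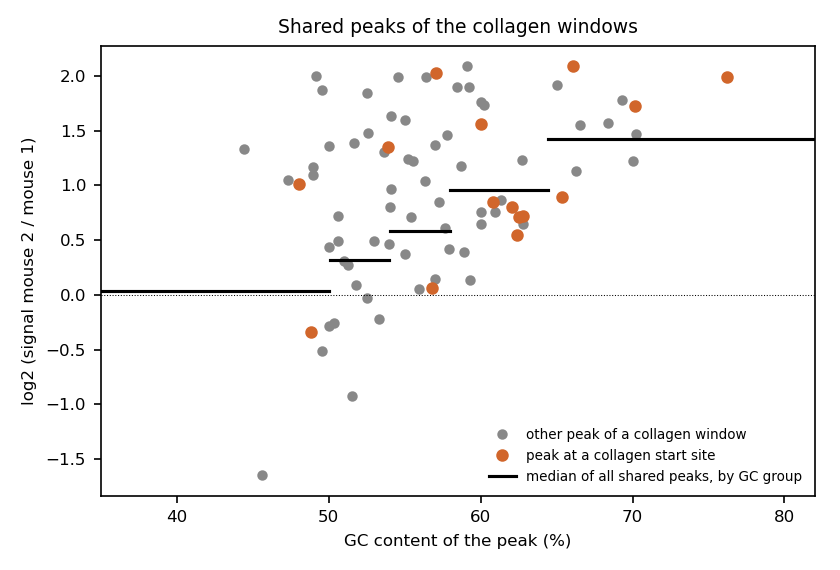
Log2 ratio of signal in mouse 2 to mouse 1 against the GC content (%) of the peak, for the 80 shared peaks of the collagen windows. Orange points lie at collagen starts, and black lines are the medians of all shared peaks in 5 GC groups, which run from 0.03 to 1.43. Most collagen points lie above 0, and those under 50% GC scatter most.

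The strongest shared sites of the collagen windows, ranked by the mean of both mice, belonged mostly to other genes. In 7 of the 10 windows with the highest shared signal, that site was the promoter of a neighbour. The signal was 11 in mouse 1 and 37.7 in mouse 2 at the Slc39a7 promoter in the Col11a2 window, and 12.9 and 33.2 at Pef1 in the Col16a1 window. Adprhl2 in the Col8a2 window stood at 6.67 and 25.2, and Pfkfb4 in the Col7a1 window at 15.2 and 14.9. The other such neighbours were Phykpl (Col23a1), Mff (Col4a3) and Ogfr (Col9a3). The collagen genes themselves at Col7a1 and Col8a2 had no promoter interval, so the neighbour's promoter gives those windows their strongest peak.

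In the other 3 windows the strongest shared site by that mean was intronic. In Col26a1 it lay 19059 bp from the 5′ end, with signals of 7.17 in mouse 1 and 12.9 in mouse 2 (SD 4.05, n = 2). In Col15a1 it lay 42999 bp in, with 3.06 and 9.23. In Col27a1 it lay 93576 bp in, with 2.48 and 8.4. In mouse 1 alone the order differed: the strongest shared site was an intergenic one (5.19) in the Col15a1 window and an intron near the start (3.03) in Col27a1. The strongest intronic site of Col23a1 (249910 bp in) reached 6.35 and 12.4. The sites of Col26a1, Col15a1 and Col27a1 exceeded the highest promoter signal of their own gene in both mice, at Col15a1 by least (3.06 against 2.81 in mouse 1). The Col23a1 site did so in mouse 2 (12.4 against 0.806). In mouse 1 the Col23a1 promoter had only longer-list peaks, of at most 0.338.

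The sequences of these 4 sites are shown because they had the highest shared intronic signal of their genes by the mean of both mice, again with the footprint bases of both mice in capitals. They are the Col26a1 site (chr5:136864061-136864260, minus strand), the Col23a1 site (chr11:51539721-51539940, plus strand), the Col15a1 site (chr4:47251061-47251240, plus strand) and the Col27a1 site (chr4:63307521-63307660, plus strand).
Col26a1 intron: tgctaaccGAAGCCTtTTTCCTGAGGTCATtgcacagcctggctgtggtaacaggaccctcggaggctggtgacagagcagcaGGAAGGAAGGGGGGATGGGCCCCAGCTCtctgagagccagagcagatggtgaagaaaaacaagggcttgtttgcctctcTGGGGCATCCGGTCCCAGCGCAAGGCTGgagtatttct
Col23a1 intron: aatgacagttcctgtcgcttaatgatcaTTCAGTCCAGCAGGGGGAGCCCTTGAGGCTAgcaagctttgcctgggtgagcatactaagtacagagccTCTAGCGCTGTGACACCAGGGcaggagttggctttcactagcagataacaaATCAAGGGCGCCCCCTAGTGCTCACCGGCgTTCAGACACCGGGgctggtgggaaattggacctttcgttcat
Col15a1 intron: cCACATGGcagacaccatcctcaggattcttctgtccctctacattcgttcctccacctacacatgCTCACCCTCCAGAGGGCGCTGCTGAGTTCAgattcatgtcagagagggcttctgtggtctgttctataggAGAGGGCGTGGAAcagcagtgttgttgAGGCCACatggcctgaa
Col27a1 intron: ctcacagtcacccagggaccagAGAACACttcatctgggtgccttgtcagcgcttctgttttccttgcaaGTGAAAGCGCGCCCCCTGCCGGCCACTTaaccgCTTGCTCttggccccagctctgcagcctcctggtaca

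Footprints of both mice covered 77 of 200 bases at the Col26a1 site, 94 of 220 at Col23a1, 57 of 180 at Col15a1 and 42 of 140 at Col27a1. The CTCF core was present at the Col15a1 and Col27a1 sites. CTCF is the zinc-finger protein that anchors chromatin loops. Among the 80 shared collagen peaks 21 (26.2%) held the core. At 16 of the 21, at least 50% of the match lay in footprints of both mice, in the windows of Col1a1, Col8a2, Col11a2, Col13a1, Col15a1, Col18a1, Col26a1 and Col27a1. Footprints of both mice covered on average 18.3% of the bases of the 80 peaks. Of 51 shared peaks away from any promoter, 12 held the core, 10 of them under such footprints, which covered on average 16.1% of the bases of those 51. In windows of 200 bases at all peaks, the core was found in 22.8% of collagen peaks and 15.6% of all peaks in mouse 1, and in 23.2% and 19.6% in mouse 2. A match is a string of letters and not a measured binding site.

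The genes that process collagen chains were read the same way, as 47 genes in 6 groups. A promoter peak was found in both mice at 23 of the 47 (57.3% of all genes), in mouse 1 at 23 (57.7% of all genes) and in mouse 2 at 36 (63.9% of all genes). The prolyl and lysyl hydroxylases and their partners, which modify the chains in the endoplasmic reticulum, were the most often open: 12 of 15 in both mice. P4hb, the protein disulfide isomerase that is also a subunit of prolyl 4-hydroxylase, had promoter signals of 20.2 and 40.1. P4ha1, its catalytic partner, had 15.9 and 44.1, and Plod3, a lysyl hydroxylase and glycosyltransferase, 12.7 and 24.0. P4ha3 and P3h2 had none in mouse 1, and 0.559 and 0.222 in mouse 2.

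Of the chaperones and export factors, 3 of 5 were called in both mice. The export factor Mia3 had signals of 8.44 and 19.7, while Serpinh1, the collagen-specific chaperone HSP47, and Fkbp10 had no promoter peak in either mouse. Propeptide processing gave 3 of 8 in both mice, among them Bmp1 (0.868 and 2.8), and all 8 in mouse 2. Cross-linking gave 1 of 5 in both mice: Loxl3 had 3.96 and 10.8, and Lox, the main lysyl oxidase, none in mouse 1 and 0.333 in mouse 2. Among the receptors 4 of 9 were called in both mice, including the integrin chain Itgb1 (3.83 and 10.1) and the leukocyte collagen receptor Lair1 (1.2 and 1.18). None of the 5 degradation genes was called in both mice, and Mmp9 (4.36) and Mmp14 (1.15) were called in mouse 2. No promoter peak was found in either mouse at 11 of the 47 genes of this list, against 35.7% of all genes.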

How the data were processed

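Thymus DNase-seq libraries of 2 mice were read from deposited files on mm10, per the labels. The authors deposited for each library 2 peak lists with a signal per peak, a cut-rate list with an FDR (a p-value adjusted by the authors, listed below 0.05), and footprint positions. Peaks and cut rates were made by the authors for each library from its own filtered alignments, per the notes deposited beside them. The aligner, the callers and their settings were not given in the sources used here. The deposited signal values were whole multiples of 1 step in each library (100% within 0.1 steps), 0.00638 in mouse 1 and 0.00504 in mouse 2. What a step stands for is not given, so read depth is unknown. Parental alleles were not told apart.

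Touching cut-rate runs were merged, giving 175838 in mouse 1 and 187681 in mouse 2. The deposited lists held 294945 and 347542 footprints. Start sites, exons and gene bodies came from GENCODE M21 and sequence from GRCm38.p6. An interval counted where it overlapped a promoter (1000 bp on either side of a start) or window by at least 1 bp, and peaks of the 2 mice were shared at an overlap of 1 bp. CpG ratios were taken over 1000 bp centred on the 5′ end. RefSeq promoter windows run from 250 bases before to 50 after a start, and 33 of 42 genes matched. The members were set by name, and the classes and gene lists were chosen with earlier results of these data known. Every member is named with its promoter call. Values in full go to members with a shorter-list promoter peak or a call that differs between lists or mice, the 5 highest and 5 lowest in density, and the strongest shared peak of 10 windows. Alternatives changed the list, window, starts, overlap rule, strength and mouse. On simulated data, 200 of 200 planted promoter peaks among 20807 genes were called, and window counts differed from bedtools 2.31.1 at 0 windows. Each planted peak overlapped the promoter of a 5′ end by construction, so this checks only the overlap code. False calls and internal starts were not tested. Python 3.11.15, numpy 2.4.6 and pandas 2.3.3 were used.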

Additional observations from a re-analysis of the deposited data

How the results depend on the processing

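Of 42 alternative values over 6 results, 27 moved by less than the spread between the mice or under 1.5 times, and 15 by more. The limit was the SD between the mice for the density (0.0358) and the shared percent (30.15 points), and 1.5 times for counts. All 4 alternatives of the shared percent could hardly pass so wide a limit. The density with 1 mouse left out was held against the spread of the same 2 mice, so it could hardly pass either. The 27 is thus not a measure of robustness. The count of collagen genes with a promoter peak in both mice (9) was 15 with promoters of 2500 bp, 4 with the 5′ end as the only start, and 4 with the stronger 50% of peaks. Leaving out each mouse in turn gave 9 to 18. The 24 genes without a promoter peak became 15 with the longer list, and 24 to 33 with 1 mouse left out. Median peaks per 10 kb (0.177) became 0.297 with the longer list, 0.0316 with the stronger 50% and 0.1 in gene bodies alone, and was 0.15 to 0.201 with 1 mouse left out. The 5 genes with no window peak became 2 with the longer list, 19 with the stronger 50%, 11 in gene bodies and 2 with 50 kb of flank. Leaving out each mouse gave 5 to 12, the higher value without mouse 2. Footprints (118) were 74 inside peaks and 39 shared by both mice, and 81 to 155 with 1 mouse left out. Why they moved was not tested beyond what each setting adds or removes.

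The 65.6% of window peaks found in both mice (mean over mice) kept between 59.2% and 68.4% under the longer list, stricter overlap and other flanks. No paired analysis was possible because there is 1 group and no result comes from a test. Depth could not be read from the files, so a promoter without an interval is one not listed at this depth. With 2 animals the spread rests on a single difference.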
